A study of Mus musculus with 25 samples.

Results

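A group of 10 genes of Wnt signalling was followed through 25 mouse hearts profiled by RNA sequencing. They are the secreted inhibitors Wif1, Sfrp1, Sfrp2, Sfrp5, Frzb and Dkk2, the frizzled receptors Fzd1 and Fzd2, the target gene Axin2 and the ligand Wnt9a. They were picked by symbol, and all 10 of 10 were found among the 56941 genes of the count table. Wif1 leads the group because it had the smallest adjusted p between the genotypes with saline. That contrast is therefore given below for every gene of the group as a description without a test, and for Wif1 no test is given in any comparison that uses saline hearts. A filter on low counts kept 17682 genes and 9 of the 10, and left out Dkk2.

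The hearts came from mice labelled WT or MCT1KO, where MCT1 is a membrane carrier of lactate encoded by Slc16a1. Each genotype had hearts with no pump, with saline and with Ang/PE, a combination of neurohormonal agonists used to bring about hypertrophy of the heart muscle. There were 4 WT and 3 MCT1KO hearts with no pump, 6 WT and 4 MCT1KO hearts with saline, and 3 WT and 5 MCT1KO hearts with Ang/PE. Each library is 1 heart. Strain, age, sex, the kind and cell range of the deletion and the length of the infusion are not given in the sources used here, and the labelled tissue is heart without a chamber.

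Wnt proteins are secreted lipid-modified signals that bind frizzled receptors together with Lrp5 or Lrp6 on the cell surface. In the canonical branch this binding stabilises beta-catenin, which enters the nucleus and, with TCF/LEF factors, turns on targets such as Axin2. The secreted inhibitors work outside the cell. Wif1 and the Sfrp family, to which Frzb belongs, bind Wnt ligands, while Dkk proteins block the Lrp coreceptors. In the adult heart the pathway is mostly quiet, and it is known for its part in heart development and in the response of fibroblasts to injury.

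The labels and libraries were checked first. Slc16a1 (ENSMUSG00000032902) was at 150 to 233 CPM (read counts scaled to a common library size) in WT hearts with no pump and at 167 to 223 CPM in MCT1KO hearts with no pump. With saline it was at 165 to 249 CPM in WT and at 132 to 194 CPM in MCT1KO hearts, a genotype difference of -0.33 on the log2 scale given without a test. With Ang/PE the difference was -0.18, and Slc16a1 passed no tested comparison. Its transcripts were thus present at 132 CPM or more in each heart labelled MCT1KO, and "MCT1KO" below means the hearts so labelled. Total counts ran from 12216704 to 24880683 per heart. All 6 ventricular muscle markers were detected in every group, as were all 7 resident fibroblast markers. The atrial markers Myl4, Myl7, Sln and Bmp10 summed to at most 5.87 CPM in the 15 hearts outside saline and reached 3813 CPM in MCT1KO saline replicate 4. In that heart 6 fat markers summed to 1217 CPM. Of the 10 saline hearts, 8 exceeded every heart outside saline in the summed atrial or fat markers. WT saline replicate 1 and MCT1KO saline replicate 3 did not. Fits below without the 8 thus keep a single saline heart per genotype, and that heart sets the saline side of their values. Xist, expressed from the inactive X chromosome of females, was above 10 CPM in 13 hearts. In WT these were 2 of the 4 hearts with no pump, 1 of the 6 saline hearts and all 3 Ang/PE hearts, and in MCT1KO 0 of the 3, 3 of the 4 and 4 of the 5.

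Before the values, the 250 bases upstream of the annotated start are shown for the gene that leads the group and for the 3 genes that passed a test below, since TCF/LEF factors are the nuclear end of the pathway and Axin2 is a target of it. Sequences are from RefSeq (GRCm38.p6), 5′ to 3′ on the gene's strand; 8 of the 10 genes had an entry, and Sfrp1 and Fzd2 had none. Capitals mark CTTTGA or TCAAAG, a form of the core letters bound by TCF/LEF, and GGGCGG or CCGCCC, the GC box, searched on both strands. Other forms of the TCF/LEF letters were not searched. The Wif1 sequence is chr10:121033754-121034003 (plus strand) and the Sfrp5 sequence is chr19:42202253-42202502 (minus strand). The Frzb sequence is chr2:80447397-80447646 (minus strand) and the Axin2 sequence is chr11:108920099-108920348 (plus strand).
Wif1: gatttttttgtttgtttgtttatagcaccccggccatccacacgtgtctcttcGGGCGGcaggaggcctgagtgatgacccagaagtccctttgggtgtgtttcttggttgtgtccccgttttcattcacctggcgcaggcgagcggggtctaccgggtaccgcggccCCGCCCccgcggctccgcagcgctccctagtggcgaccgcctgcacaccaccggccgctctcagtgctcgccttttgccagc
Sfrp5: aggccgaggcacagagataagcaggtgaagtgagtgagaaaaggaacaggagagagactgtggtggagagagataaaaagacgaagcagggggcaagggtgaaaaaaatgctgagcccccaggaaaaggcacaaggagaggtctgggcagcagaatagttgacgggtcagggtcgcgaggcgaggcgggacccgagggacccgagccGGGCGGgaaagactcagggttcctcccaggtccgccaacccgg
Frzb: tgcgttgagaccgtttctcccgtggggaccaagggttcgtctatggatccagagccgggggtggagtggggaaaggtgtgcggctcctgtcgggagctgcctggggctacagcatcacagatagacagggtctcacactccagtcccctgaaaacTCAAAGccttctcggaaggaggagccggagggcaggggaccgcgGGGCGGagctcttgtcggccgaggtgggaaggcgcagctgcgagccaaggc
Axin2: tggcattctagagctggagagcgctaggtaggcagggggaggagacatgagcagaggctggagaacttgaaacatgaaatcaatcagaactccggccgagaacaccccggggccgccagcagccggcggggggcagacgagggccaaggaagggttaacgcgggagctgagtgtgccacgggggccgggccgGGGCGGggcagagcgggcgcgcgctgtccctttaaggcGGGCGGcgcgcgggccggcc

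The searched TCF/LEF letters occur in 2 of the 8 sequences, in Frzb 95 bases before the start (position -95) and in Fzd1 at position -242, against 13.83% of the 32851 promoters of the same length in the table. For Fzd1 the annotated start was not matched by the first bases of a GENCODE M21 transcript. The GC box occurs in 6 of the 8 sequences, against 32.74% of all. Wif1 and Axin2 hold 2 GC boxes each and none of the searched TCF/LEF letters within this window. GC content was 62.8% upstream of Wif1, 59.6% upstream of Sfrp5, 64.4% upstream of Frzb and 69.2% upstream of Axin2, above the median of 52.4% over all promoters. A match is a description of letters, not of a bound site.

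Levels of different genes were compared per kilobase of the longest annotated transcript, as the mean over the 25 hearts. Sfrp1 was the most abundant at 6.07 CPM per kilobase, followed by Sfrp2 at 3.49, Fzd1 at 3.23 and Frzb at 3.00 CPM per kilobase. Wnt9a (1.92), Fzd2 (1.86), Wif1 (1.63), Sfrp5 (1.57) and Axin2 (1.51 CPM per kilobase) lay close together, and Dkk2 was near the limit of detection at 0.0321 CPM per kilobase. The Sfrp5 mean joins unlike groups, with 3.01 (WT) and 4.17 (MCT1KO) CPM per kilobase with saline and 0.129 to 0.505 in the other groups. All values below are CPM of 1 gene compared between hearts. The genes differed in how steady they were. Wnt9a spanned 2.08-fold from the lowest to the highest heart and Fzd1 2.95-fold, while Frzb spanned 10.7-fold and Sfrp2 30.03-fold. Sfrp5 ran from 0 to 19.2 CPM. In RNA of heart tissue rather than of single cells, fewer cells of a type and less RNA per cell cannot be told apart.

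**Figure D1:**
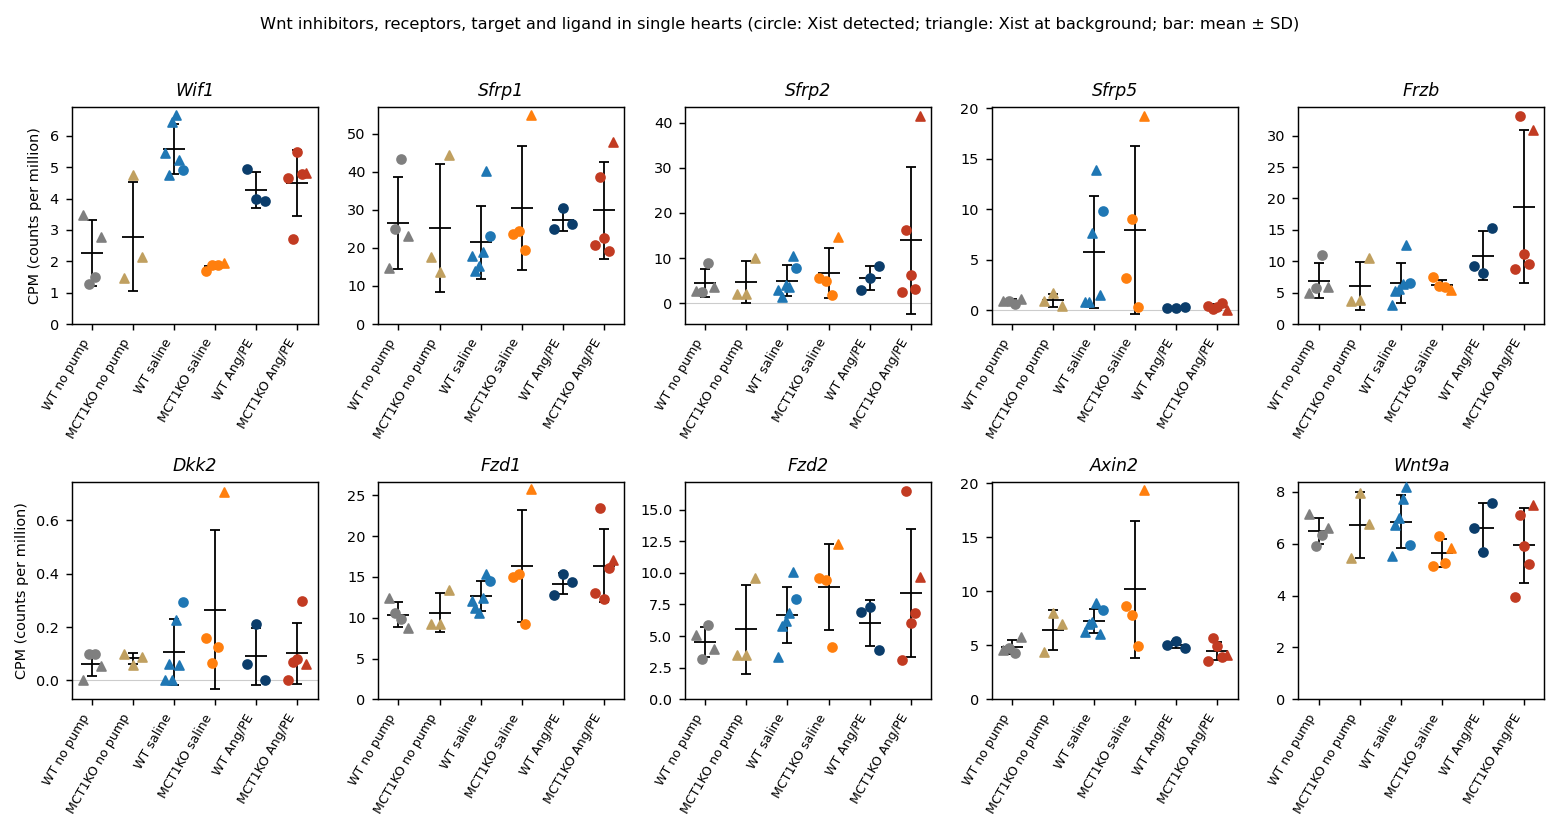
CPM (y axis) of each of the 10 genes in single hearts, grouped by genotype and treatment (x axis); points are hearts, circles have Xist above 10 CPM, and bars give the mean ± SD. Wif1 is low and tight in MCT1KO hearts with saline (1.69 to 1.95 CPM) and higher in WT hearts with saline (4.77 to 6.66 CPM), Sfrp5 is widely spread in the saline groups, and Frzb reaches 33.1 CPM with Ang/PE.

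Wif1 (Wnt inhibitory factor 1, ENSMUSG00000020218), which binds Wnt ligands outside the cell, was lower in all 4 MCT1KO hearts with saline than in all 6 WT hearts with saline. The MCT1KO hearts were at 1.69, 1.90, 1.87 and 1.95 CPM, and the WT hearts had a lowest value of 4.77, a median of 5.34 and a highest of 6.66 CPM. The means were 1.85 ± 0.112 CPM (SD, n = 4) and 5.58 ± 0.797 CPM (SD, n = 6), or -1.59 on the log2 scale. This is the contrast that chose Wif1, so it carries no test, and non-overlap in this direction was found for 1.82% of all 17682 genes. No other gene of the group had separate groups here, among 2.88% of all genes with separate groups in either direction.

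In the other treatments the genotypes overlapped for Wif1. With no pump the WT hearts were at 3.47, 1.27, 1.498 and 2.79 CPM and the MCT1KO hearts at 1.47, 4.74 and 2.15 CPM. The log2 fold change of 0.28 had an SE of 0.32 (edgeR adjusted p = 0.771). With Ang/PE the WT hearts were at 4.95, 3.98 and 3.93 CPM and the MCT1KO hearts at 4.66, 2.72, 5.49, 4.78 and 4.803 CPM, so 4 of the 5 MCT1KO hearts lay within or above the WT range of 3.93 to 4.95 CPM. The log2 fold change was 0.06 (SE 0.30, 95% confidence interval -0.56 to 0.69, edgeR adjusted p = 0.981). Averaged over these treatments, which the choice of Wif1 did not use, the genotype difference was 0.17 (SE 0.22, 95% confidence interval -0.28 to 0.63, edgeR adjusted p = 0.775).

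Ordered by mean, Wif1 was highest in WT hearts with saline, then in MCT1KO with Ang/PE (4.49 ± 1.04 CPM, SD, n = 5), WT with Ang/PE (4.29 ± 0.574 CPM, n = 3), MCT1KO with no pump (2.79 ± 1.73 CPM, n = 3) and WT with no pump (2.26 ± 1.05 CPM, n = 4), and lowest in MCT1KO with saline. Each pair of neighbours in this order overlapped. With Ang/PE all 3 WT hearts were above all 4 WT hearts with no pump, which is 0.92 on the log2 scale (SE 0.32). Its unadjusted p was 0.00764 and its edgeR adjusted p 0.454, and 3.63% of all genes were separate in this direction. In MCT1KO hearts the same step was 0.70 (SE 0.31, unadjusted p 0.0326, edgeR adjusted p = 0.317) and the groups overlapped. As values without a test, Ang/PE against saline was -0.38 in WT and 1.27 in MCT1KO hearts, and saline against no pump was 1.30 in WT and -0.57 in MCT1KO hearts.

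The tests on the rest of the group asked whether the genotypes differed outside saline, what Ang/PE changed against each control, and what saline changed against no pump; comparisons against saline and of saline against no pump share the saline hearts. Genes passed in 1 of the 10 tested comparisons, Ang/PE against saline in MCT1KO hearts, where 3 of the 8 genes tested were called at an adjusted p below 0.05 in edgeR's quasi-likelihood test. Frzb rose, and Sfrp5 and Axin2 fell. Over all genes 4.46% were called in that comparison, 1.75% higher and 2.70% lower. The median log2 fold change of the 8 was -0.01, the same as the median over all tested genes (-0.01). In WT hearts Ang/PE against saline gave 0 of 8 (0.0170% of all genes), with 1 at an unadjusted p below 0.05 (19.1% of all genes). The interaction of genotype and Ang/PE gave 0 of 8 (0% of all genes) and 0 at an unadjusted p below 0.05 (13.5% of all genes), so a difference in response between the genotypes was not detected for any of these 8.

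The remaining comparisons called 0 genes of the group. Between genotypes edgeR gave 0 of 9 with no pump, with Ang/PE and averaged over both (0% of all genes in each), with 0 of 9 at an unadjusted p below 0.05 in each (12.2%, 6.92% and 14.1% of all genes). Saline against no pump gave 0 of 8 in WT (6.61% of all genes), where 2 had an unadjusted p below 0.05 (24.3% of all genes), and 0 of 8 in MCT1KO hearts (0.00566% of all genes), where 3 did (12.1% of all genes). Ang/PE against no pump gave 0 of 9 in WT (0% of all genes), where 1 had an unadjusted p below 0.05 (9.02% of all genes), and 0 of 9 in MCT1KO hearts (0.503% of all genes), where 3 did (13.1% of all genes). DESeq2 called 1 gene, Sfrp5, in WT hearts for Ang/PE against saline and also for saline against no pump. It called 1 gene, Frzb, for Ang/PE against no pump in MCT1KO hearts, and 0 in the other comparisons where edgeR called 0.

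**Figure D2:**
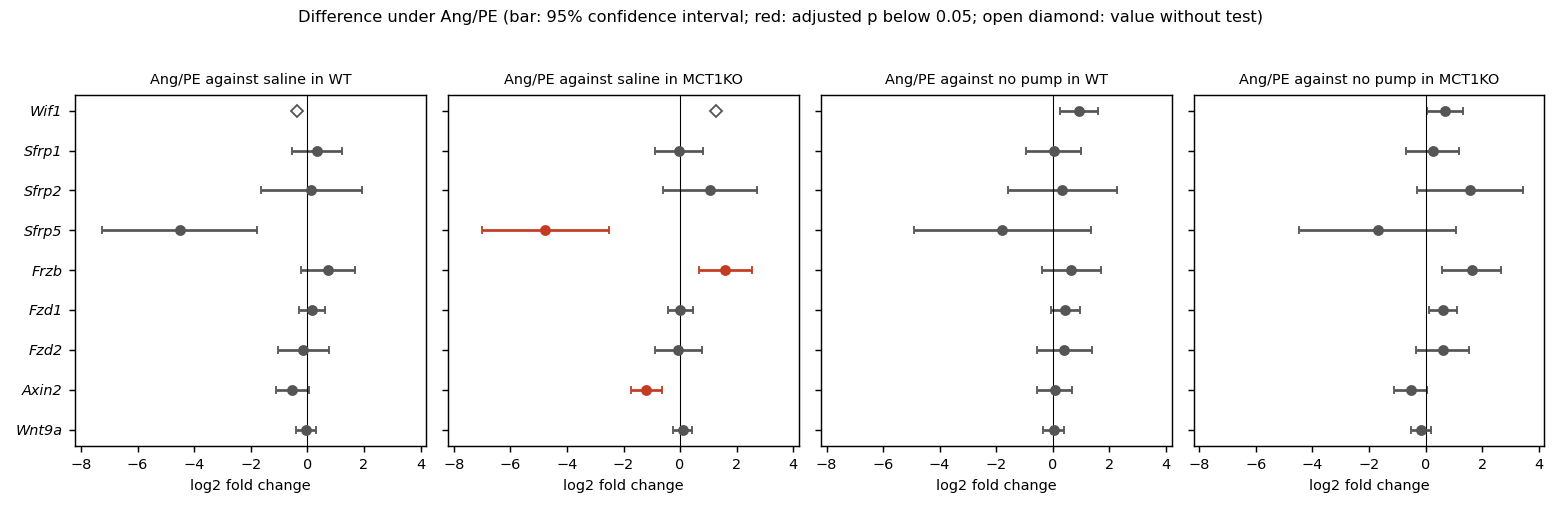
Log2 fold change (x axis) of the 9 tested genes (y axis) under Ang/PE, against saline and against no pump, in each genotype; bars are 95% confidence intervals, red marks an adjusted p below 0.05 and open diamonds are values without a test. Sfrp5 and Axin2 lie below 0 and Frzb above 0 in MCT1KO hearts against saline, at -4.76, -1.19 and 1.59.

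Among the secreted inhibitors, Sfrp5 (ENSMUSG00000018822), a frizzled-related protein that binds Wnt ligands, was high in some saline hearts and at most 1.64 CPM in every heart outside saline. With no pump it was at 0.857, 0.926, 0.599 and 1.07 CPM in WT and at 0.883, 1.64 and 0.358 CPM in MCT1KO hearts. With saline it had a lowest value of 0.756, a median of 4.53 and a highest of 13.8 CPM in WT, and was at 3.22, 8.97, 0.312 and 19.2 CPM in MCT1KO hearts. With Ang/PE it was at 0.239, 0.210 and 0.286 CPM in WT and at 0.366, 0.0698, 0.318, 0.748 and 0 CPM in MCT1KO hearts. Every value above 1.64 CPM was thus in a saline heart, and no Ang/PE heart exceeded 0.748 CPM. Against saline, Sfrp5 fell by 4.76 on the log2 scale in MCT1KO hearts (SE 1.08, edgeR adjusted p = 0.0189), where the groups overlapped through saline replicate 3. In WT hearts the groups were separate, as for 7.16% of all genes in this direction, and the log2 fold change was -4.52 (SE 1.31, edgeR adjusted p = 0.0893). Against no pump the Ang/PE values were -1.79 (SE 1.50, edgeR adjusted p = 0.764) in WT and -1.69 (SE 1.33, edgeR adjusted p = 0.658) in MCT1KO hearts. These groups were separate in WT, on 3 to 4 counts per heart with Ang/PE and 12 to 20 with no pump, and overlapped in MCT1KO. The share of all genes separate in this direction is not given here.

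Every Sfrp5 value above 1.64 CPM was in a saline heart with raised atrial or fat markers. The part of other tissue in the Sfrp5 values was not tested. MCT1KO saline replicate 1 had more fat marker signal than replicate 2 (63.0 against 46.8 CPM), less atrial signal (696 against 810 CPM) and less Sfrp5. The 2 saline hearts without raised atrial or fat markers had 0.756 and 0.312 CPM of Sfrp5, and the heart with the most, MCT1KO saline replicate 4, had 19.2 CPM. In the MCT1KO contrast 4 of 5 atrial markers, 5 of 5 tested fat markers and 2 of 6 mesothelial markers were called lower under Ang/PE. The fat markers summed to 11.4 to 1217 CPM in MCT1KO hearts with saline and to 12.3 to 15.8 CPM with Ang/PE, where Ucp1 and Lep were at 0 in every heart. The mesothelial markers summed to 13.2 to 116 CPM and to 6.48 to 16.8 CPM. With the mean log2 CPM of the atrial and of the fat markers as covariates, the Sfrp5 difference was -0.45 (edgeR adjusted p = 0.909). That fit called 0 of all genes in this comparison, against 788 without the covariates. The atrial covariate included Nppa, with which the atrial sum reached 5149 CPM in MCT1KO Ang/PE hearts, against 5.87 CPM without it. Without the 8 saline hearts named above the difference was -0.13, with MCT1KO saline replicate 3 alone on the saline side. Without MCT1KO saline replicate 4 alone the Sfrp5 difference was -3.84 and not called (edgeR adjusted p = 0.124). With only the groups compared in the fit it was -4.77 (edgeR adjusted p = 0.19).

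Frzb (ENSMUSG00000027004), also known as Sfrp3, was the 1 gene of the group called higher with Ang/PE, in MCT1KO hearts against saline. In MCT1KO hearts it was at 8.69, 33.1, 11.2, 9.49 and 30.9 CPM with Ang/PE, at 7.45, 6.09, 5.94 and 5.43 CPM with saline, and at 3.73, 3.87 and 10.5 CPM with no pump. All 5 Ang/PE hearts were above all 4 saline hearts, as for 3.06% of all genes in this direction, and replicates 2 and 5 stood well above the other 3. Against saline the log2 fold change was 1.59 (SE 0.45, edgeR adjusted p = 0.0476), and against no pump it was 1.63 (SE 0.50, unadjusted p 0.00374, edgeR adjusted p = 0.14). In WT hearts Frzb was at 9.24, 8.18 and 15.3 CPM with Ang/PE. It had a lowest value of 3.08, a median of 5.98 and a highest of 12.5 CPM with saline, and was at 4.87, 5.80, 11.04 and 5.90 CPM with no pump, so these groups overlapped. The log2 fold change against saline was 0.73 (SE 0.46, edgeR adjusted p = 0.395), and the interaction was 0.86 (SE 0.64, edgeR adjusted p = 0.564).

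The Frzb call stood close to the threshold. It was lost without Ang/PE replicate 2 (1.28, edgeR adjusted p = 0.101), without Ang/PE replicate 5 (1.33, 0.108), and without each saline replicate in turn, at 1.68 and 0.0708 for replicate 1, 1.57 and 0.0891 for replicate 2, 1.56 and 0.065 for replicate 3 and 1.53 and 0.191 for replicate 4. It was also lost with only the groups compared (1.58, edgeR adjusted p = 0.218), without the low-count filter (1.59, 0.113) and with the Xist covariate (1.59, 0.0594). The size of the difference was similar with the atrial and fat covariates (1.58, edgeR adjusted p = 0.566). Without the 8 saline hearts, which leaves a single MCT1KO saline heart, it was 1.66. Markers of activated fibroblasts moved with Frzb: all 7 were detected in every group, and they summed to 147, 1387, 425, 185 and 1302 CPM in the 5 MCT1KO hearts with Ang/PE. The same sum was 79.7 to 158 CPM in MCT1KO hearts with saline, 179 to 356 CPM in WT hearts with Ang/PE and 43.2 to 242 CPM in WT hearts with saline. Of these markers 4 of 7 were called higher in the MCT1KO contrast, among them Postn (2.02) and Thbs4 (4.54 on the log2 scale). So were 2 of 7 valve and tendon-like markers, Scx and Tnmd, in a list where 4 went up and 3 down. Tnmd was near the limit of detection, at 0 to 2.09 CPM in MCT1KO hearts with Ang/PE. The part of either marker list in the Frzb result was not tested.

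**Figure D3:**
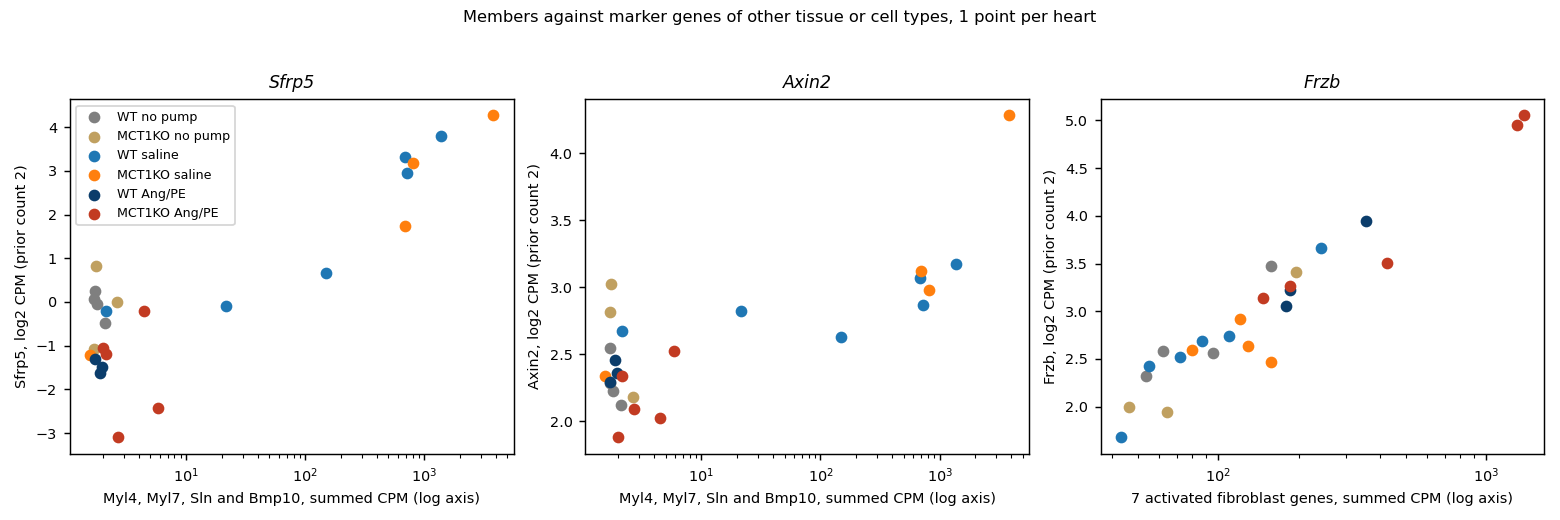
Log2 CPM of Sfrp5, Axin2 and Frzb (y axis) in single hearts against summed marker CPM on a log axis (x axis): 4 atrial markers for Sfrp5 and Axin2, and 7 activated fibroblast genes for Frzb, with 1 colour per group. The saline hearts with raised atrial markers carry the high Sfrp5 values, MCT1KO saline replicate 4 stands alone for Axin2, and the 2 MCT1KO Ang/PE hearts with the highest Frzb have the highest activated fibroblast sums (1387 and 1302 CPM).

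Sfrp1 (ENSMUSG00000031548) and Sfrp2 (ENSMUSG00000027996), the inhibitors with the highest mean per kilobase over the 25 hearts, passed no comparison. By group, Sfrp2 lay below Sfrp5 per kilobase with saline in both genotypes, and below Frzb in WT hearts with Ang/PE. Sfrp1 was at 14.7 to 43.5 CPM in WT and 13.6 to 44.3 CPM in MCT1KO hearts with no pump, at 13.98 to 40.1 CPM and 19.4 to 54.8 CPM with saline, and at 25.0 to 30.5 CPM and 19.2 to 47.8 CPM with Ang/PE. Its log2 fold change for Ang/PE against saline was 0.34 (SE 0.43, edgeR adjusted p = 0.705) in WT and -0.03 (SE 0.41, edgeR adjusted p = 0.979) in MCT1KO hearts. Sfrp2 was at 2.47, 16.3, 6.29, 3.07 and 41.4 CPM in MCT1KO hearts with Ang/PE, against 5.65, 4.91, 1.75 and 14.6 CPM with saline and 1.91, 2.11 and 10.1 CPM with no pump. Its high values were in the same Ang/PE replicates 2 and 5 as those of Frzb, and the groups overlapped. The log2 fold change was 1.06 against saline (SE 0.79, edgeR adjusted p = 0.479) and 1.57 against no pump (SE 0.90, unadjusted p 0.0956, edgeR adjusted p = 0.491). Without Ang/PE replicate 5 the first was 0.07, and with 1 heart left out the second ran from 0.58 (without Ang/PE replicate 5) to 2.80 (without no-pump replicate 3). In WT hearts Sfrp2 was at 2.80, 5.59 and 8.29 CPM with Ang/PE, within the range of 1.38 to 10.6 CPM with saline.

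Dkk2 (ENSMUSG00000028031), which blocks the Lrp coreceptors, had 51 counts in all 25 hearts together and 0 to 12 per heart. Its highest level was 0.708 CPM in MCT1KO saline replicate 4, and no other heart exceeded 0.299 CPM. At this depth no difference between groups could be measured.

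Neither frizzled receptor passed a comparison. Fzd1 (ENSMUSG00000044674) was at 8.74 to 12.4 CPM in WT hearts with no pump, 10.6 to 15.3 CPM with saline and 12.8 to 15.4 CPM with Ang/PE. In MCT1KO hearts it was at 9.18, 9.25 and 13.4 CPM with no pump, at 14.9, 15.4, 9.19 and 25.8 CPM with saline, and at 12.98, 23.5, 12.3, 16.1 and 17.1 CPM with Ang/PE. In both genotypes the mean was lowest with no pump, and in WT the Ang/PE hearts were above all no-pump hearts, as for 3.63% of all genes. Ang/PE against no pump was 0.63 (SE 0.24, unadjusted p 0.0155, edgeR adjusted p = 0.244) in MCT1KO and 0.44 (SE 0.25, edgeR adjusted p = 0.608) in WT hearts. Saline against no pump was 0.62 in MCT1KO hearts (SE 0.25, unadjusted p 0.0204, edgeR adjusted p = 0.312), and it was called when saline replicate 3 was left out (0.82, edgeR adjusted p = 0.0431). Without saline replicate 4 it was 0.32 (edgeR adjusted p = 0.798), and the sign turned to -0.16 with the atrial and fat covariates and to -0.21 without the 8 saline hearts with raised markers. Ang/PE against saline was 0.01 (SE 0.22, 95% confidence interval -0.44 to 0.45).

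Fzd2 (ENSMUSG00000050288) was more uneven and passed no comparison. It was at 3.22 to 5.89 CPM in WT hearts with no pump, 3.37 to 10.04 CPM with saline and 3.93 to 7.27 CPM with Ang/PE. In MCT1KO hearts it was at 3.51 to 9.61 CPM with no pump, 4.12 to 12.3 CPM with saline and 3.11 to 16.5 CPM with Ang/PE. The groups overlapped in each comparison. The difference furthest from 0 among those tested was 0.66 for saline against no pump in MCT1KO hearts (SE 0.46, edgeR adjusted p = 0.594). It ran from 0.42 to 1.33 with 1 heart left out (1.33 without MCT1KO no-pump replicate 3) and turned to -0.44 without the 8 saline hearts with raised markers.

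Axin2 (ENSMUSG00000000142), a scaffold of the beta-catenin destruction complex and a widely used readout of canonical signalling, fell with Ang/PE against saline in MCT1KO hearts. It was at 3.57, 5.66, 4.94, 3.96 and 4.14 CPM with Ang/PE, at 8.61, 7.79, 4.94 and 19.3 CPM with saline and at 4.42, 8.02 and 6.93 CPM with no pump. Saline replicate 4 was the highest heart of the series, and replicate 3 lay within the Ang/PE range. The log2 fold change was -1.19 (SE 0.26, edgeR adjusted p = 0.0143). In WT hearts Axin2 was at 5.01, 5.38 and 4.79 CPM with Ang/PE, below all 6 saline hearts (6.07 to 8.91 CPM) and within the range of those with no pump (4.25 to 5.74 CPM). The difference against saline there was -0.53 (SE 0.28, edgeR adjusted p = 0.313), and 7.16% of all genes were separate in this direction. The interaction was -0.66 (SE 0.38, edgeR adjusted p = 0.437).

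Axin2 was highest in MCT1KO saline replicate 4, the heart with the highest atrial and fat markers, but did not follow these markers in every heart. MCT1KO hearts with no pump reached 8.02 CPM of Axin2 with atrial sums of at most 2.65 CPM. The part of other tissue in the Axin2 values was not tested. Without MCT1KO saline replicate 4 the Ang/PE difference against saline was -0.68 (edgeR adjusted p = 0.111), and with only the groups compared it was -1.20 (edgeR adjusted p = 0.202). With the atrial and fat covariates it was -0.06 (edgeR adjusted p = 0.968). Without the 8 saline hearts, which leaves a single MCT1KO saline heart, it was -0.15. The 2 saline hearts without raised markers had 6.28 CPM (WT, where the lowest saline heart had 6.07 CPM) and 4.94 CPM (MCT1KO). Against no pump, saline was 0.59 (SE 0.25, unadjusted p 0.0265, edgeR adjusted p = 0.146) in WT, where the groups were separate as for 4.10% of all genes, and 0.66 (SE 0.29, edgeR adjusted p = 0.358) in MCT1KO hearts. The MCT1KO value was 0.15 (edgeR adjusted p = 0.92) without saline replicate 4, -0.49 with the atrial and fat covariates and -0.38 without the 8 saline hearts.

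Wnt9a (ENSMUSG00000000126), the ligand of the group, was the steadiest gene, with 3.93 to 8.17 CPM over all hearts. Its group means ran from 5.62 ± 0.539 CPM (SD, n = 4) in MCT1KO hearts with saline to 6.84 ± 1.02 CPM (SD, n = 6) in WT hearts with saline. Ang/PE against saline was -0.05 (SE 0.17, 95% confidence interval -0.40 to 0.30) in WT and 0.09 (SE 0.16, 95% confidence interval -0.25 to 0.42) in MCT1KO hearts, and the groups overlapped in each comparison.

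The rest of the pathway was taken from lists of 78 other Wnt genes, of which 52 passed the filter on low counts. In MCT1KO hearts 5 of the 52 were called for Ang/PE against saline, 2 of them higher and 3 lower, against 4.46% of all genes, 1.75% higher and 2.70% lower. An unadjusted p below 0.05 was found for 18 of the 52, against 20.4% of all genes. By role, 2 of 6 other ligands and 1 of 5 genes of the R-spondin list were lower, 1 of 7 other extracellular and membrane inhibitors and 1 of 16 intracellular transducers were higher, and 0 of 13 other receptors and 0 of 5 other targets were called. The ligand Wnt5a, which signals mostly outside the beta-catenin branch, fell from 21.3 ± 7.98 CPM (SD, n = 4) to 11.7 ± 1.09 CPM (SD, n = 5), or by -0.86 on the log2 scale (SE 0.21, edgeR adjusted p = 0.0215). The ligand Wnt2b (-3.78, SE 0.86, edgeR adjusted p = 0.0169) and Rspo1 (-2.50, SE 0.69, edgeR adjusted p = 0.0415), which strengthens Wnt signals by stabilising frizzled receptors, fell from levels of at most 3.83 and 6.25 CPM. Kremen1, a receptor for Dkk proteins, rose from 165 ± 36.8 CPM (SD, n = 4) to 250 ± 13.4 CPM (SD, n = 5) with separate groups (0.60, SE 0.14, edgeR adjusted p = 0.0204). Daam1, a formin of the planar polarity branch, rose by 0.39 (SE 0.11, edgeR adjusted p = 0.0463). Without MCT1KO saline replicate 4, with the atrial and fat covariates or with only the groups compared in the fit, 0 of the 52 were called, and without saline replicate 3 there were 12. The count over all genes moved as well: 788 in the main fit, 0 with these covariates and 46 to 1549 with 1 heart left out. With only the groups compared the log2 fold changes were -3.79 for Wnt2b, 0.59 for Kremen1 and -0.88 for Wnt5a. With the covariates they were -0.98 for Wnt2b, 0.36 for Kremen1, -0.18 for Wnt5a, -0.06 for Rspo1 and 0.17 for Daam1. Without the 8 saline hearts with raised markers, which leaves a single MCT1KO saline heart, they were -1.23, 0.63, 0.01, -0.91 and 0.28 in the same order. The median log2 fold change of the 52 was -0.04, against -0.01 over all tested genes.

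In WT hearts the called pathway genes were in another comparison. Saline against no pump gave 4 of 52, all higher, against 2.39% of all genes called higher: Apc2 (0.88, SE 0.20, edgeR adjusted p = 0.0153), Prickle1 (0.44, SE 0.13, 0.0398), Znrf3 (0.48, SE 0.14, 0.0477) and Tcf7l2 (0.41, SE 0.13, 0.0498). Apc2 is a relative of the destruction complex scaffold Apc, Prickle1 acts in planar polarity, Znrf3 removes frizzled receptors from the membrane and Tcf7l2 is a TCF/LEF factor. Left out singly, WT no-pump replicates 3 and 4 each brought the count to 0, no-pump replicate 1 brought it to 9, and each of the other hearts left Apc2 with at most 1 other gene. The atrial markers were called higher in this comparison for 4 of 5, and 0 of 52 were called with the atrial and fat covariates or with GC and length offsets. The count over all genes was 1168 in the main fit, 0 with these covariates and 60 to 2232 with 1 heart left out. With the covariates the log2 fold changes were 0.50 for Apc2, 0.41 for Prickle1, 0.46 for Znrf3 and 0.40 for Tcf7l2. In the other 8 tested comparisons 0 of the 52 were called, with 3 to 11 at an unadjusted p below 0.05 (6.92% to 19.1% of all genes). Dkk3, chosen after its values were seen, another extracellular inhibitor of the lists, also varied widely among saline hearts: 1.28 to 129 CPM in WT and 5.69 to 435 CPM in MCT1KO hearts with saline, and at most 52.6 CPM elsewhere.

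The genes of the group were also compared by how they varied together within groups, as the Pearson r of deviations from the 6 group means in log2 CPM over the 25 hearts. All genes of a heart share its library depth and tissue makeup, which differed between hearts, so r is given as a description. Sfrp1 and Sfrp2 (0.87), Sfrp2 and Frzb (0.79), Fzd1 and Fzd2 (0.75) and Sfrp1 and Frzb (0.73) went up and down together. Sfrp5 went most with Axin2 (0.59) and hardly with Sfrp1 (-0.06) or Sfrp2 (0.04). Wif1 stood apart, with r from -0.40 with Sfrp1 to 0.27 with Wnt9a.

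**Figure D4:**
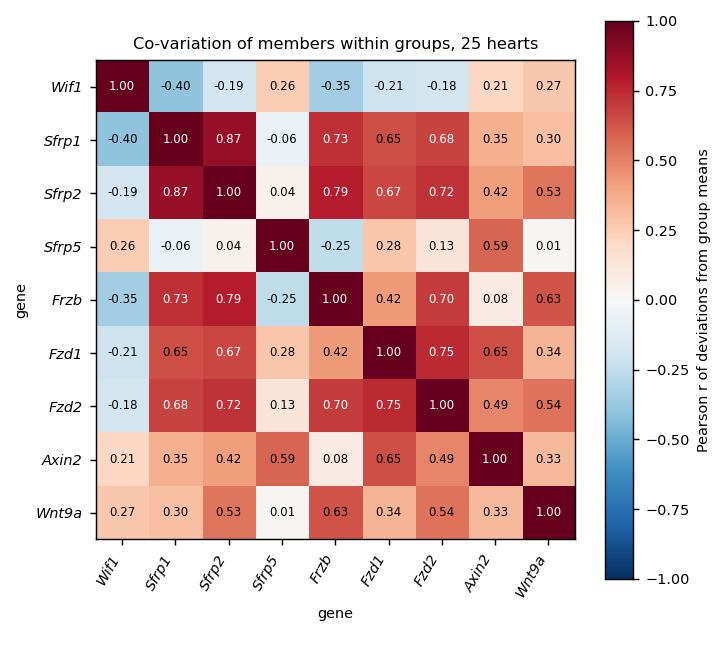
Pearson r of deviations from group means in log2 CPM over 25 hearts for each pair of the 9 tested genes (both axes), with the colour scale from -1 to 1. Sfrp1, Sfrp2, Frzb, Fzd1 and Fzd2 form a block of positive values from 0.42 to 0.87, and Wif1 is negative with each gene of that block.

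Among 14524 genes, the 5 whose log2 CPM was most like that of each of 5 group genes over the 25 hearts were found by Pearson r. For Wif1 these were Tns1 (0.83), Sun2 (0.81), Crim1 (0.80), Akap1 (0.80) and Otud7b (0.79), and r of the deviations from group means was 0.57 to 0.75. For Frzb they were Col8a1 (0.95), Col8a2 (0.94), Cilp (0.94), Fibin (0.94) and Thbs4 (0.93), of which Col8a1 and Col8a2 encode matrix collagens and Cilp and Thbs4 are on the activated fibroblast list used above. For Sfrp1 they were Gabra3 (0.95), Lrp1 (0.94), Ccdc80 (0.94), Tenm3 (0.92) and Antxr1 (0.91), and for Sfrp2 they were Angptl7 (0.89), Pdgfrl (0.89), Ccdc80 (0.89), Lrp1 (0.89) and Eya4 (0.88). The r of deviations was 0.90 to 0.94 for the genes named for Frzb, 0.92 to 0.98 for those of Sfrp1 and 0.88 to 0.91 for those of Sfrp2. For Axin2 they were Cacna1d (0.90), Traf4 (0.90), Kcnj5 (0.89), Tbx5 (0.89) and Zfp579 (0.89), with 0.82 to 0.86 for the deviations. Of these 5, Cacna1d and Kcnj5 encode ion channels of atrial and pacemaker muscle. Axin2 had its highest value in the heart with the highest atrial markers, and the part of that heart in these r values was not tested.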

How the data were processed

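RNA was measured in 25 mouse hearts. Per the labels' protocols, total RNA was depleted of ribosomal RNA and strand-specific libraries were made. The deposited values are read counts per Ensembl gene for each heart. The submitters' processing notes name cutadapt 1.16, STAR 2.7.9a, featureCounts 1.6.3 and DESeq2 1.42.1 and the build GRCm39 (mm39). The annotation, the strand setting and the treatment of reads with several matches are not given in the sources used here, so reads of overlapping or antisense genes may be misassigned. Genes without a symbol hold 0.778% of the reads.

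Counts were tested with edgeR 4.0.16 in R 4.3.3: filterByExpr by group, TMM scaling, 1 model of the 6 groups with 19 residual degrees of freedom (common biological coefficient of variation 0.196), glmQLFit (robust) and two-sided glmQLFTest. The Benjamini-Hochberg adjustment ran over 17682 genes within each of 10 comparisons, and calls were made at an adjusted p below 0.05. CPM use TMM-scaled library sizes, log2 CPM a prior count of 2, and SEs come from the F statistic. Gene length is that of the longest GENCODE M21 (GRCm38) transcript.

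The genes of the group and all lists were chosen with earlier results of these data known. Named genes are the 10 of the group, each called gene of the 6 other Wnt lists, the 5 genes of highest r (mean log2 CPM above 0) for 5 of the group, and Slc16a1. Marker lists covered ventricular and atrial muscle, resident and activated fibroblasts, valve and tendon-like cells, pericytes and smooth muscle, endothelium, leukocytes, mesothelium, fat and Schwann cells. Alternatives were RLE scaling, DESeq2 1.42.0, no low-count filter, a replicate block, only the groups compared, GC and length offsets (mgcv 1.9.3), Xist or atrial and fat markers as covariates, and each heart left out. Leaving out the 8 saline hearts with raised markers was added after seeing the data, and it left a single saline heart of each genotype. Replicates are separate libraries of hearts. Over 43 pairs within groups, the lowest chi-square per degree of freedom was 3.33, so no library was treated as a copy of another. The edgeR script was tested on simulated data.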

Additional observations from a re-analysis of the deposited data

Results flagged for a closer look

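Wif1 in MCT1KO Ang/PE replicate 2 was far below the other 4 hearts of its group, at 1.51 log2 CPM (2.72 CPM) against 2.26 for the nearest. The gap is 76.5% of the range of the group. It was the 1 case among 36 such tests of the 9 tested genes in groups of 4 to 6 hearts, where about 1.8 arise by chance. The same heart had the highest Frzb (33.1 CPM) and activated fibroblast sum (1387 CPM) of the series; their part in the Wif1 value was not tested.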

How the results depend on the processing

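The 3 genes called for Ang/PE against saline in MCT1KO hearts became 0 with the atrial and fat covariates. The count was also 0 with only the groups compared in the fit. With each heart left out the count was 0 to 3, and 0 only without MCT1KO saline replicate 4. In WT hearts, Ang/PE against saline went from 0 to 1 (Sfrp5) with DESeq2, and saline against no pump to 1 with DESeq2 (Sfrp5) and 1 with only the groups compared (Axin2). In MCT1KO hearts, saline against no pump gave 0 to 1 with each heart left out (1, Fzd1, without saline replicate 3), and Ang/PE against no pump gave 1 (Frzb) with DESeq2. The cause of these changes was not tested. Fits that leave some hearts out also have fewer hearts.

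For saline against no pump, values with an unadjusted p below 0.05 that changed sign with the atrial and fat covariates and without the 8 saline hearts were Sfrp5 in WT, to -1.08 and -0.20, and in MCT1KO hearts Sfrp5 to -1.67 and -1.56, Axin2 to -0.49 and -0.38 and Fzd1 to -0.16 and -0.21. Others turned too, among them Fzd2 to -0.30 and -0.44 in WT and to -0.29 and -0.44 in MCT1KO hearts, Sfrp2 to -1.003 and -0.64 and to -1.25 and -1.44, and Sfrp1 in MCT1KO hearts to -0.57 and -0.38. Of the other values of single genes, 1875 kept their side of the threshold or stayed within the spread, 21 lost a call, 5 gained one and 8 moved by more than the spread between hearts. Among values that were never called, 167 changed sign under some alternative. Values without the 8 saline hearts rest on a single saline heart of each genotype.

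Counts over all genes moved more. Ang/PE against saline called 788 genes in MCT1KO hearts, 0 with the atrial and fat covariates, 1224 with DESeq2 and 46 to 1549 with each heart left out; in WT it called 3, from 0 to 923 (only the groups compared) and 1 to 128. Saline against no pump called 1168 in WT, from 0 to 2197 and 60 to 2232, and 1 in MCT1KO, from 0 to 209 (DESeq2) and 0 to 628. Ang/PE against no pump called 89 in MCT1KO, from 11 (Xist covariate) to 385 (DESeq2) and 1 to 123, and 0 in WT, up to 25 with DESeq2. Between genotypes DESeq2 called 24 with no pump, 5 with Ang/PE and 83 over both, where edgeR called 0.

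Same-numbered hearts are different animals, and over 52 such pairs the mean correlation of deviations was 0.0094. With the replicate block, Ang/PE against saline in MCT1KO hearts called 2 of the group (Axin2 and Sfrp5, not Frzb) and 534 genes in all, and the other comparisons 0 of the group.

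Depth limits Dkk2, Sfrp5 outside saline and Wnt2b, which rest on few counts per heart. Genotype, treatment, Xist and marker levels are unbalanced over groups of 3 to 6 hearts, and the labels give no batch.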
